A study of Mus musculus with 2 samples.

Results

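Antisense models are transcript models that the deposited annotation of long reads placed in a class meant for reads opposite a known transcript. The models described here had the class Antisense and at least 5 reads in a library, which 317 of the 82272 models of replicate 1 and 239 of the 78691 models of replicate 2 met. Identifiers of unannotated models belong to 1 library, so models of both libraries were joined wherever exons overlapped on the same strand. This gave 347 antisense loci, each counted by all its Antisense-class reads. The class name does not describe each of them. No annotated gene lay opposite 17 loci, and 16 overlapped an annotated gene on their own strand. The members were thus chosen by their class and read count, and these are given as a description.

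The cells were C2C12, a mouse myoblast line that the labels trace to crushed thigh muscle of C3H mice. Total RNA was read in 1 group of 2 libraries, named biological replicates 1 and 2, with no treatment named. The sources used here do not give the differentiation state, the sequencing platform or the aligner. With 1 group there was no contrast of conditions, and the test used below sets 1 library against the other. Replicate 1 held 791850 reads and replicate 2 held 735077. Of 8 myoblast markers, 8 were read in both libraries, with 2102 and 2280 reads in all. Of 12 markers of other cells, 6 had no read in either library, including Ptprc of blood cells and Cdh5 of endothelium. The other 6 summed to 273 and 235 reads, of which Ly6a, a surface marker of fibro-adipogenic progenitors, took 268 and 230. Pdgfra, listed as a marker of the same progenitors, had 1 and 1.

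Natural antisense RNAs are transcribed from the strand opposite another gene and can overlap its start, its body or its end. Some start at a shared or nearby promoter and run away from the gene, which is called divergent transcription, and others begin beyond the gene's end and run back into it. Known examples such as Airn, Nespas and Tsix act at imprinted loci or on the X chromosome.

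The bases at both ends of the leading models are shown first, because the results on position turn on them. All coordinates are mm10, and the bases were read from the exons of GENCODE M21 transcripts. Printed below are the first 30 bases of some leading 1-exon models, 5′ to 3′ on the model's own strand. They are a selection that does not follow read rank. Capitals mark 1 match per sequence to TTTATT or TTTAAT, which are AATAAA and ATTAAA, the usual polyadenylation signal hexamers, read on the other strand. The sequence at Sept2 also opens with TTTAAT, left in lower case.
Actb chr5:142903115-142903144 (+): tgtttgtgtaaggtaaggtgtgcactttta
Cavin1 chr11:100956733-100956762 (+): tccttttagaaaagcaggTTTATTggtccg
Sept2 chr1:93509704-93509733 (-): tttaatatctaaacaatagtgcTTTATTga
Golt1b chr6:142403829-142403858 (-): tgaatagaaaagtaccctTTTATTgaggtc
Ado chr10:67544511-67544540 (+): taattttaaacatgctTTTATTtcccataa
Tmem250-ps chr2:26136814-26136843 (+): gcacattaaaaaaataggTTTAATgcaggt
Arl14ep chr2:106962527-106962556 (+): ttattatttctaaaagtcTTTATTagtgta
Set chr2:30072548-30072577 (-): tccaaaaaaaatctttatgttccTTTATTg
Klhl9 chr4:88718292-88718321 (+): tatcagttaagtaatTTTATTatataaaga
Myf5 chr10:107482908-107482937 (+): cacctcctttaaatatTTTATTgataataa

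The next set shows the 20 bases that follow the 3′ end of the model on its own strand, outside the model. It is a selection and does not follow read rank, as Klhl9 and Slc39a1 had fewer reads than the others printed. Left out were Arl14ep and Set, each with 5 A in the 20 bases and no run of 4, and Myf5, with 20 A. Capitals mark runs of at least 4 A.
Actb chr5:142903655-142903674 (+): AAAAAAAAAAAAAAAAAAAA
Cavin1 chr11:100958475-100958494 (+): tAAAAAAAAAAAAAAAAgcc
Ado chr10:67547495-67547514 (+): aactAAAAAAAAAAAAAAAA
Klhl9 chr4:88720021-88720040 (+): agccaaaccAAAAAAAAAAA
Slc39a1 chr3:90253103-90253122 (-): AAAAAAAAAAAAAAAAAAAA
Golt1b chr6:142402112-142402131 (-): attcAAAAggaccacAAAAg
Tmem250-ps chr2:26138384-26138403 (+): cacatgtccacaaagaccat
Nmt2 chr2:3327056-3327075 (-): tttagtattttattttccct

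Nearly all members had 1 exon, which is called unspliced here and below. A 1-exon model holds no splice junction and can be a piece of 1 exon of a spliced RNA, which was not tested. Of the 317 members of replicate 1, 313 were unspliced (98.7%, Wilson 95% interval 96.8 to 99.5), and of the 239 of replicate 2, 237 (99.2%, 97.0 to 99.8). The 4 and 2 spliced members held 24 and 14 reads, against 13710 and 8480 reads on 1-exon members. Among all Antisense-class models, including those with fewer reads, 9.27% and 8.94% were spliced. The intervals cover counting error only.

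Most members were thinly read. A 1-exon member had a median of 13 reads in replicate 1 and 11 in replicate 2, and 45 and 34 members had at least 50 reads. Exactly at the minimum of 5 reads lay 33 and 29 models, and just below it, at 4 reads, lay 60 and 42. The members' median length was 1329 and 1521 bases, and the loci ran from 194 to 10036 bases. In replicate 2 the table also held 2 members under 50 bases, 1 of them of length 1.

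The classes Genomic and Intergenic also held mostly 1-exon models. In the class Genomic, which holds unmatched reads on the strand of an annotated gene, 99.4% and 99.2% of models with at least 5 reads had 1 exon. In the Intergenic class the share was 87.2% and 80% (41 of 47 and 24 of 30 models). The classes NIC and NNC hold unannotated splice structures. There 0 of 706 and 0 of 742 NIC models with at least 5 reads had 1 exon, and 0 of 538 and 0 of 573 NNC models. Annotated models with at least 5 reads had 1 exon in 6.14% and 5.51%. All Antisense-class models together took 2.03% of reads in replicate 1 and 1.43% in replicate 2, and Genomic models 5.29% and 3.22%.

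The antisense loci lay mainly at the 3′ ends of genes. Of the 347 loci, 211 overlapped the window of 500 bases around the end of the opposite gene and not its start (60.8%, Wilson 95% interval 55.6 to 65.8). Another 102 lay in the gene body (29.4%), 12 reached both ends (3.46%), and 5 lay at the promoter, within 500 bases of the gene start (1.44%). The other 17 had no annotated gene opposite them (4.90%). The 3′ end loci held 11192 and 6951 reads and the promoter loci 17 and 30. Of the 330 loci opposite an annotated gene, 63.9% were thus at the 3′ end (58.6 to 68.9).

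The 5′ ends of the loci gathered at the gene end itself. On a scale where 0 is the start of the opposite gene and 100 its end, the median place of the 5′ end was 100 and that of the 3′ end 92.5. At 247 of 330 loci (74.8%) the 5′ end lay at 95 or beyond, and at 3 loci between 0 and 5. The plot of ends along the opposite gene shows both.

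**Figure D1:**
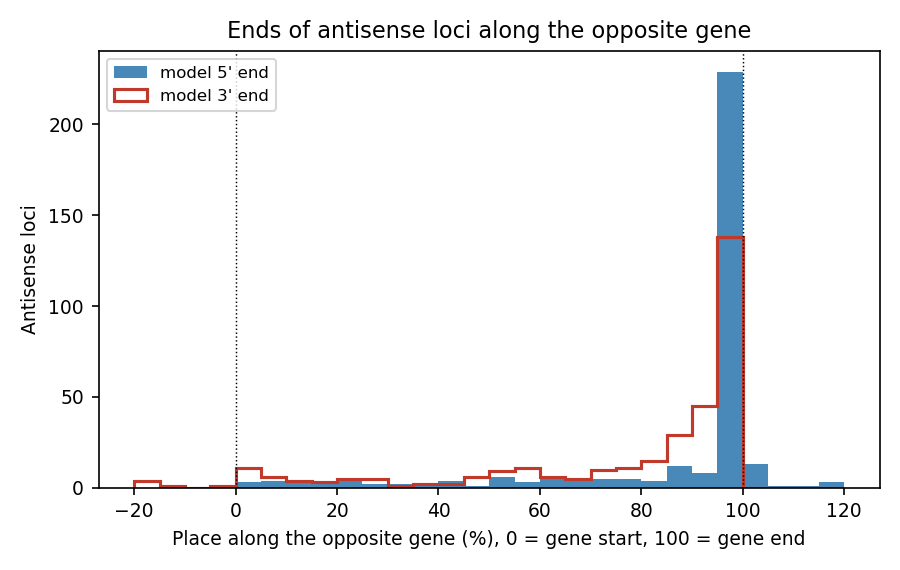
Number of antisense loci (y axis) by the place of their 5′ end (filled) and 3′ end (outline) along the opposite gene in percent of its length (x axis, 0 the gene start and 100 the gene end). Values beyond the axis are drawn in the outermost bins. Most 5′ ends fall in the bin that closes at the gene end, with 247 of 330 at 95 or beyond.

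The coincidence was exact to the base. Of 550 1-exon members, 373 had their 5′ end on the annotated end of a transcript of the other strand (67.8%, Wilson 95% interval 63.8 to 71.6). A further 2 were 1 to 50 bases away. The members were pooled from both libraries, where the shares were 67.7% (212 of 313) and 67.9% (161 of 237). As 209 loci had members in both libraries, the same end can count for each, and the pooled interval is too narrow. The whole model lay inside 1 annotated exon of the other strand in 416 of 550 (75.6%). Models on the annotated end held 82.3% of 1-exon member reads in replicate 1 and 81.7% in replicate 2. Whether reads or the annotation step set these ends was not tested.

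The share grew with read number. A 5′ end on an annotated end was found in 23.0% of 2334 1-exon antisense models with 1 read, 43.0% of those with 2 to 4 and 62.4% of those with 5 to 9. It was 71.5% with 10 to 49 reads and 72.2% with at least 50. The share inside 1 exon went from 26.6% through 48.3%, 69.9% and 78.1% to 84.8%. The intervals of the first 3 read classes do not overlap, and those of the last 3 do, for both features. Models of both libraries were pooled here too, so these intervals are too narrow.

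**Figure D2:**
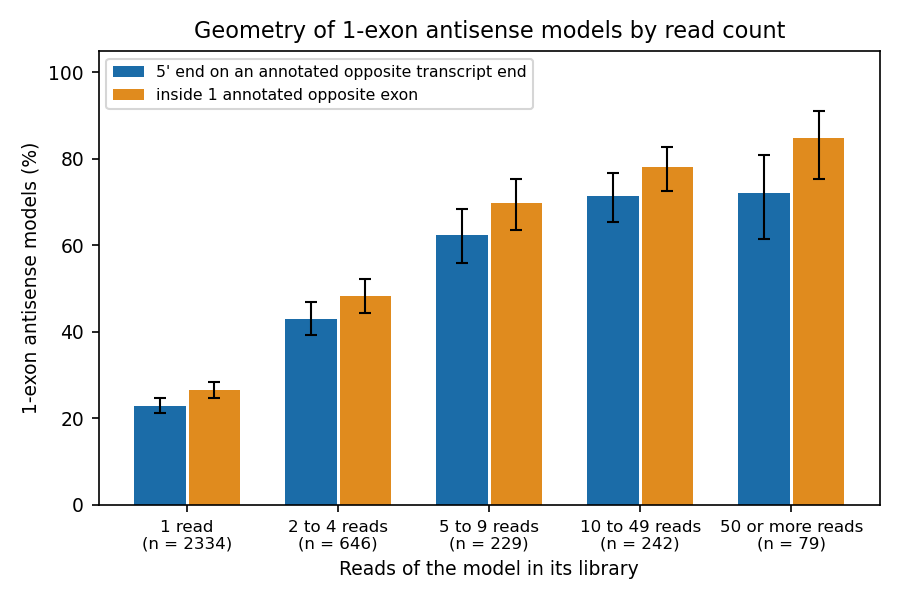
Share of 1-exon antisense models (y axis, percent) by the reads of the model in its library (x axis, models of both libraries), with the 5′ end on an annotated transcript end of the other strand (blue) or inside 1 annotated exon of the other strand (orange). Bars carry Wilson 95% intervals, which treat models of both libraries as separate and are too narrow. The shares run from 23.0% and 26.6% with 1 read to 72.2% and 84.8% with at least 50.

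The polyadenylation hexamers of the opposite gene were therefore inside many models. Among the 224 1-exon loci whose leading model starts on an annotated end, 163 (72.8%, Wilson 95% interval 66.6 to 78.2) held TTTATT or TTTAAT in their first 30 bases, 139 of them TTTATT. For comparison, AATAAA or ATTAAA stands in the last 30 bases at 31.3% of 91385 distinct annotated transcript ends of protein-coding genes. These include every transcript type of such genes, coding or not. How many of these annotated ends are complete was not tested. On the model's own strand AATAAA or ATTAAA stood in the last 50 bases of 21 of 219 such loci (9.59%). In the sequences above, such a hexamer is present in every model printed apart from that opposite Actb. This is no rate among leading models. Of the models left out that had more reads than Myf5, some held a hexamer, but those opposite Igsf3, Lin7c and Map1b did not. A match is only a match of letters.

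Stretches of A followed many 3′ ends. Bases after the 3′ end could be read at 204 of these 224 loci (91.1%), and their median share of A was 55%. At 101 loci (49.5%, 42.7 to 56.3) at least 12 of the 20 bases were A. Over all 980883 windows of 20 bases in the 204 transcripts they were read from, 2.29% held as many A on that strand, with a median of 25%. The models opposite Actb and Slc39a1 were followed by 20 A, and those opposite Tmem250-ps and Nmt2 by no run of 4. These bases are in the genome, not a tail of the RNA. For loci whose 5′ end lay elsewhere, exonic bases held the first 30 at 36 of 118 and the bases after the 3′ end at 50 of 118 (42.4%), under the 80% set for such a check, so both are void there.

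A model of the same extent on the gene's own strand accompanied many loci. At 171 of 347 loci (49.3%) a 1-exon model on the other strand had both ends within 10 bases of the leading antisense model, 128 of them among the 234 loci with a member on an annotated end. Genomic models with at least 5 reads and 1 exon had their 3′ end on an annotated end of their own strand in 77.8% (1118 of 1437) and 76.8% (631 of 822).

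Loci opposite Actb and Cavin1 held the most reads. The locus opposite Actb, the gene of beta-actin (ENSMUSG00000029580.14, chr5:142903115-142903654 on the plus strand, inside the last exon), had 3667 and 2129 reads, a level of 3764 ± 1227 CPM, counts scaled to the library total (SD, n = 2). That was 26.6% and 24.4% of all reads on the loci. Actb itself had 6565 and 3419 reads, of which 5822 and 2802 lay on 1-exon models. These models have both ends within 10 bases of the leading antisense model, so they span no intron. Both strands were thus higher in replicate 1.

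The locus opposite Cavin1, which encodes a coat protein of caveolae (ENSMUSG00000004044.9, chr11:100956733-100958474, plus strand), had 1310 and 1140 reads, or 1603 ± 73.2 CPM (SD, n = 2). The gene had 484 and 449, so the antisense strand held 73.0% and 71.7% of reads on the pair. Actb and Cavin1 together made up 36.0% and 37.5% of locus reads.

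Opposite Sept2, a septin of the cytoskeleton, lay 390 and 210 antisense reads, and the gene had 114 and 112 spliced reads. The files also assign unspliced reads over this stretch, 367 and 214, to a second identifier with the symbol Sept2. Opposite St13, an Hsp70-binding co-chaperone, lay 237 and 110, and opposite Sdc4, the heparan sulfate proteoglycan syndecan 4, 224 and 122. These 3 loci had more reads in replicate 1.

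Golt1b, a gene of Golgi transport, faced 193 and 118 antisense reads against 245 and 186 of its own. Ado, which encodes a thiol dioxygenase, faced 167 and 114 against 193 and 130. Tmem250-ps, annotated as a lincRNA, faced 151 and 124 against 142 and 118. For these genes and for Arl14ep (147 and 99 against 169 and 97) and Nmt2, an N-myristoyltransferase (131 and 88 against 137 and 101), both strands were of like size.

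Set, which encodes a histone chaperone, faced 159 and 68 reads and had 329 and 199. At Gm28875, a locus reaching both ends of the gene, 154 and 85 antisense reads stood against 169 and 95, all of the latter unspliced. Other loci that reached both ends were opposite Gm10800 (45 and 36, with 1 gene read in each library) and Gm38158 (34 and 22, with no gene read). In the gene body, after Sept2, the most reads lay opposite Ncs1, a neuronal calcium sensor (112 and 97), and Tmem263 (140 and 66).

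**Figure D3:**
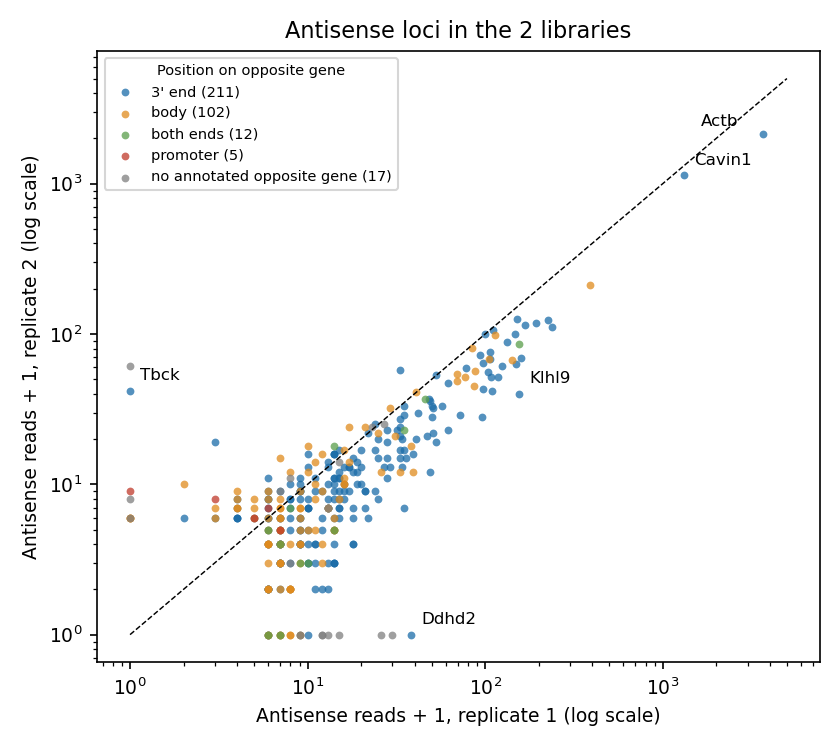
Antisense reads of each of the 347 loci in replicate 1 (x axis) and replicate 2 (y axis), both plus 1 on log scales, coloured by position on the opposite gene. The dashed line marks equal read counts. Most loci lie below the line, Actb and Cavin1 stand apart at the top, and loci on an axis such as Tbck and Ddhd2 had no Antisense-class read in 1 library.

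Genes opposite a locus were mostly coding and above the usual level. The loci faced 324 distinct genes, and 306 loci faced a protein-coding one, 10 a lincRNA and 6 a processed pseudogene. The 297 distinct coding genes with reads had a median of 42 and 33, against 14 and 13 over all 12199 coding genes with reads. At loci opposite a coding gene, where either strand was read, the antisense strand held a median of 27.2% and 24.7% of the pair's reads, and it exceeded the gene at 31 and 36 loci. Reads that the files assign to another identifier are not in the gene's count, such as 367 and 214 unspliced reads at Sept2. How many of these loci that affects was not tested. Of all 330 loci with an annotated gene opposite, the gene had no read at 10 in each library.

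Members faced few genes of the lists examined. Of the coding genes with reads, 2.43% had a locus opposite. The counts were 0 of 48 histone genes, 1 of 89 ribosomal protein genes (Rps3), 4 of 319 Zfp zinc finger genes and 2 of 25 myogenic and contractile genes. The latter were Myf5, a determination factor of the muscle lineage, and Acta2, the actin of smooth muscle. The locus opposite Acta2, in the gene body, had 11 and 15 reads against 2139 and 2104 of the gene.

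In all, 5 intron chains with several exons reached 5 reads, and 3 of them were read in both libraries. Opposite Snx6, a sorting nexin, a chain of 2 exons (chr12:54774778-54783086, plus strand) had 8 and 6 reads, and its intron has no counterpart in the opposite gene. Opposite Sparc, a collagen-binding matrix protein, a chain of 2 exons (chr11:55394500-55395949, plus strand) had 5 and 4 reads. Its intron was, to the base, an annotated intron of Sparc on the other strand. Both lie far below the gene, which had 204 and 235 reads at Snx6 and 1626 and 1580 at Sparc.

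A chain of 4 exons opposite Gnas, which encodes the stimulatory G protein alpha subunit at an imprinted locus, had 5 and 1 reads (chr2:174321480-174327570, minus strand). None of its 3 introns mirrored the gene. Nespas, the annotated antisense RNA of this locus (chr2:174281237-174295436), had 0 and 1 reads and does not overlap the chain.

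A further chain came from 1 library. Opposite Cst3, the gene of cystatin C, a chain of 3 exons (chr2:148871722-148875451, plus strand) had 6 and 0 reads, and both its introns mirrored annotated introns of Cst3. The bases around the 3′ side of its first intron are printed to show this, 10 from the intron and 10 from the exon, with the last bases of the intron in capitals.
Cst3 antisense intron end (+): aagtacctACcctcatcaga

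AC is GT on the other strand, the usual first bases of an intron there. Among all 331 spliced antisense chains of both libraries, including those under 5 reads, 32 had every intron mirrored to the base and 45 within 10 bases. Of the 23 chains read in both libraries, 4 were mirrored.

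Annotated antisense RNAs had another make-up. Of 2959 annotated genes of the biotype antisense, 230 and 237 were read, 117 of them in both libraries and 31 with at least 5 reads in either. Their 778 and 647 reads were spliced in 44.2% and 43.6%. Zfas1, antisense to the start of a zinc finger gene, had 101 and 65 reads, all spliced, and Hoxa11os, opposite Hoxa11, had 17 and 19, all spliced. Both were listed but are annotated as processed transcripts, so they lie outside that biotype and its spliced share. Hotairm1 of the Hoxa cluster had 7 and 3, Airn 5 and 0, and Tsix 0 and 1. Pcna-ps2, which was listed but is annotated as a processed pseudogene, had 5 and 3. Of the 19 names listed, 16 were in the annotation and 7 had a read. Of the 31 genes with at least 5 reads, 11 had no spliced read. Gm20659, the most read of this biotype, had 157 and 127 reads, of which 1 and 0 were spliced.

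Divergent candidates were loci whose 5′ end lay within 1000 bases of an annotated transcript start of the other strand, with the model running upstream from it. There were 26, and 17 of them met the rule at the start of a gene rather than of an inner transcript. With coding genes alone, 8 were left. A candidate is a position and not a promoter, since long reads can lack the 5′ end of an RNA.

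Of the 26 candidates, 14 had a member with its 5′ end on an annotated transcript end of the other strand, and at 10 of these the start and the end belonged to different genes. At the other 4 both belonged to the same gene. The largest was the locus opposite the end of Slc39a1, a zinc transporter gene, with 117 and 51 reads, 551 bases from the start of Crtc2, a CREB coactivator. Opposite Nsd3, a histone methyltransferase, 40 and 40 reads lay 978 bases from the start of Gm23094. Opposite Kdm6b, a histone demethylase, 23 and 16 reads lay 274 bases from the start of Tmem88. Opposite Kmt2d, a histone methyltransferase, 15 and 8 reads lay 148 bases from the start of Prkag1. These candidates therefore also belong to the 3′ end pattern, or in the case of Nsd3 to an inner transcript end.

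The other 12 candidates had no such end to the exact base, and 8 of them were read in both libraries. The highest were opposite inner starts of Cdk5rap1, with 8 and 5 reads at 0 bases, and of Rbm39, an RNA-binding splicing factor, with 9 and 4 at 137 bases. The 5′ end of the model opposite Rbm39 also lay 9 bases from an annotated transcript end of the other strand. Opposite Hoxc9, a homeobox gene of positional identity, a 1-exon model (chr15:102975383-102976439, minus strand) had 6 and 4 reads and began at the very base of the gene start, running upstream. Hoxc9 had 28 and 28 reads. Opposite Gm26523 a model (chr1:163303620-163304517, plus strand) had 4 and 5 reads and began at the gene start, while the gene had none. Each of these had under 10 reads in either library.

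The remaining promoter loci were opposite Bves, a Popeye-family membrane protein of muscle (5 and 6 reads, inside the first part of the gene), CAAA01118383.1 (2 and 7) and Gm26809 (0 and 8). All 5 promoter loci therefore had at most 8 reads in a library.

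The 5′ end of the Gnas chain fell in a promoter window of RefSeq (GRCm38.p6), shown because it is the 1 spliced candidate. The window runs on the plus strand from 250 bases before to 50 after a Gnas start, chr2:174327499-174327798, and the chain, on the minus strand, starts at its position 72. Capitals mark ATTGG, which is CCAAT on the other strand, and TTTATA, which is TATAAA on the other strand.
Gnas promoter (+): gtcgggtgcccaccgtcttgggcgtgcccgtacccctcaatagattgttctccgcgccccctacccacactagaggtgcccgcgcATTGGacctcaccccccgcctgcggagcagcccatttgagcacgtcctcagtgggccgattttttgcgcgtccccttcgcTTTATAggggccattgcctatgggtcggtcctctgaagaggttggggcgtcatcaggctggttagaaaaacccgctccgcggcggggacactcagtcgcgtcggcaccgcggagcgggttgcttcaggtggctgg

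This window held 27 CpG and 64.3% G or C, against medians of 7 and 52.7% over 32851 RefSeq promoters. On either strand, CCAAT occurs in 37.4% of those promoters, TATAAA in 13.6% and GGGCGG, which this window lacks, in 35.7%.

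Loci with no annotated gene opposite were in part read on both strands. Of the 17, 16 in replicate 1 and 13 in replicate 2 had reads on both strands. These counts do not hold every class. At chr4:103564529-103565257 they hold 6 and 8 reads on the strand of the locus, where all classes together had 192 and 207. At chr11:100457653-100461668 the minus strand had 23 and 13 reads and the plus strand 25 and 18. At chrX:51113494-51116105 they were 26 and 24 on the minus strand and 19 and 16 on the plus strand. These examples were chosen after their values were seen. Over loci with reads on both strands, the weaker strand held from 4.35% to 48% of the reads so counted in replicate 1. In replicate 2 it held from 4.17% to 50%. These shares were not taken over all classes. The 17 loci lie at 13 places, since some are the opposite strands of 1 place. Of the 17, 11 (64.7%) lay within 5000 bases downstream of the end of a gene on their own strand, as did 86 of all 347 loci. On the minus strand, the examples lay 946 bases past Klhl11 on chromosome 11 and 1164 past Mbnl3 on the X chromosome.

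Members were mostly seen in both libraries. Of 313 1-exon members of replicate 1, 292 overlapped a 1-exon antisense model of replicate 2 (93.3%, Wilson 95% interval 90.0 to 95.6), and of 237 of replicate 2, 228 were met in replicate 1 (96.2%, 92.9 to 98.0). With 5 to 9 reads the shares were 88.7% and 93.3%, and with at least 50 they were 100% and 97.1%. For 1-exon Intergenic models with at least 5 reads, 68.3% (28 of 41) and 62.5% (15 of 24) were met, and for Genomic ones 78.8% and 86.3%. Of spliced members 3 of 4 and 1 of 2 were met, by exact intron chain. Over loci, 317 of 347 had Antisense-class reads in both libraries, 22 in replicate 1 alone and 8 in replicate 2 alone. At 19 of the 30 loci at 0 in 1 library, that library had reads of another class on the same strand. Locus reads, as log2(reads + 1), had a Pearson correlation of 0.721 over 347 loci, which share the 2 libraries and were chosen to be high in at least 1.

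Antisense reads were fewer in replicate 2. The loci held 13809 reads in replicate 1 and 8722 in replicate 2, and the share of all reads in replicate 2 was 0.680 of that in replicate 1, or 0.700 without Actb. An exact binomial test, two-sided, set the libraries against each other at each locus given their totals, with Benjamini-Hochberg adjustment over annotated genes and loci with at least 10 reads. This test covers counting error only, with 1 library a side. Of 9212 features 4.34% were called at an adjusted p of 0.05, 2.84% higher in replicate 1 and 1.5% higher in replicate 2. Of annotated genes alone it was 4.08%, 2.57% higher in replicate 1 and 1.51% higher in replicate 2. Of 272 loci tested, 35 were called (12.9%), 32 higher in replicate 1 (11.8%) and 3 higher in replicate 2 (1.1%). The median log2 ratio of replicate 2 over replicate 1 was -0.50 over these loci and 0.07 over annotated genes, and 206 of 272 loci were lower in replicate 2. As the members needed 5 reads in either library, and replicate 1 gave more of them, the choice bears on these counts.

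The strongest call read in both libraries was Actb, with a log2 ratio of -0.68 (counting SE 0.0393, adjusted p 5.95e-65 by the exact binomial test). The locus opposite Klhl9, an adaptor of a ubiquitin ligase, had 154 and 39 reads (log2 ratio -1.86, adjusted p 4.66e-13), and Klhl9 had 194 and 45, all on 1-exon models. The locus opposite Myf5 (chr10:107482908-107483795, plus strand) had 95 and 27 reads (-1.69, adjusted p 7.56e-07), and Myf5 had 215 and 60. Of the gene's reads 138 and 24 were unspliced and 77 and 36 spliced. At each of these genes both strands were lower in replicate 2. Sept2 (-0.78, adjusted p 1.70e-08) and St13 (-0.997, adjusted p 1.13e-07) were called in the same direction. The unspliced reads opposite, 367 and 214 under the second Sept2 identifier and 227 and 116 at St13, had log2 ratios of -0.67 and -0.86.

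Of the 35 calls, 9 were at loci with no Antisense-class read in 1 library, and at 8 of these the library at 0 had reads of another class on the same strand. The locus opposite the end of Tbck had 0 and 41 antisense reads, and in replicate 1 the strand held 41 reads named otherwise, 40 of them as incomplete matches of an annotated transcript. Opposite Ddhd2, a phospholipase gene, 37 and 0 antisense reads stood beside 25 Genomic reads in replicate 2. At chr2:180719359-180721593, 0 and 60 antisense reads stood beside 78 Intergenic reads in replicate 1. The other call higher in replicate 2 was opposite the rRNA gene CT010467.1, with 2 and 18 reads. A count of 0 allows up to 3.79 CPM in replicate 1 and 4.08 CPM in replicate 2.

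With reads of any class on the strand, the same test called 26 of 286 loci higher in replicate 1 and 0 higher in replicate 2, where 4.19% of all 9226 features were called, 2.74% and 1.45% in these directions. The median log2 ratio was then -0.46. Of the 9 calls at 0, 8 were lost and 1 stayed, that at chr4:149498473-149499614, where the strand had 16 and 0 reads (adjusted p 0.00198 by the exact binomial test). The calls at Tbck, Ddhd2 and the locus on chromosome 2 were among those lost, with adjusted p of 0.969, 0.684 and 0.732 by the exact binomial test.

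The unspliced reads of the opposite genes, meaning those on 1-exon models, differed between the libraries in the same direction. They may include pieces of spliced RNA. At 142 loci with at least 20 reads on each strand, the median log2 ratio was -0.55 for the antisense locus, -0.71 for unspliced reads of the opposite gene and 0.11 for its spliced reads. Lower in replicate 2 were 117 of the loci, 129 of the unspliced counts and 49 of the spliced counts. The antisense ratio had a Pearson correlation of 0.478 with the unspliced and 0.100 with the spliced ratio over the 140 loci read in both libraries. These pairs share the 2 libraries and often the same stretch of genome. Among the 25 called loci that were higher in replicate 1 and read in both, the unspliced reads opposite were lower in replicate 2 at 24 and the spliced reads at 11. The remaining locus was opposite Sept2, whose unspliced reads stand under the second identifier and were lower too. The part of the unspliced reads in the antisense difference was not tested.

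**Figure D4:**
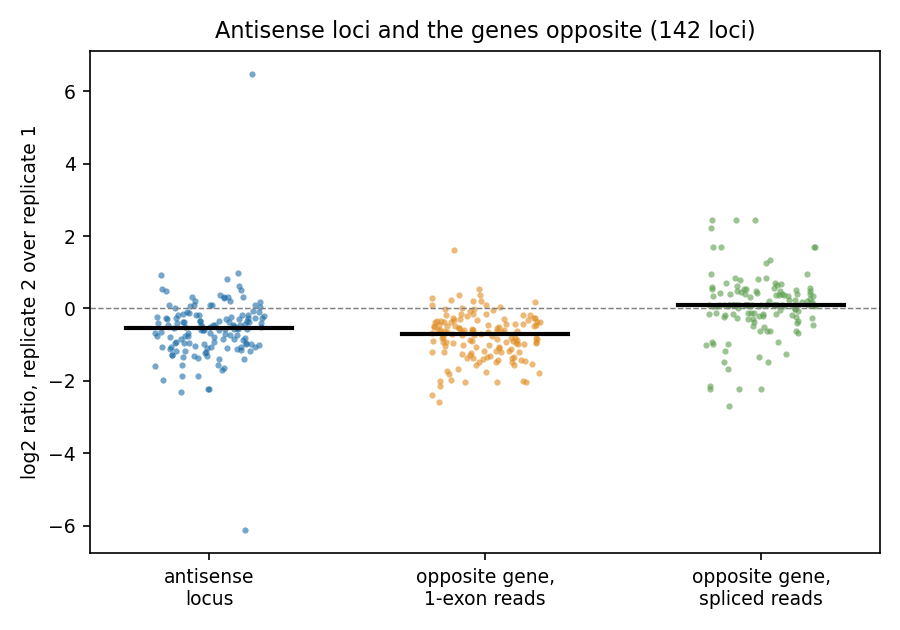
Log2 ratio of replicate 2 over replicate 1 (y axis) at 142 loci for antisense reads, unspliced reads (1-exon models) of the opposite gene and its spliced reads. Each point is a locus, jittered sideways, and black lines are medians. The first pair of medians lies below 0, at -0.55 and -0.71, and the spliced median at 0.11.

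Levels showed the same relation. As log2 values over these loci, antisense reads had a Pearson correlation with unspliced reads of the opposite gene of 0.650 in replicate 1 and 0.666 in replicate 2, and with its spliced reads of 0.178 and 0.105. Genes opposite the loci had 47.0% and 33.7% of their reads on 1-exon models, or 39.6% and 28.5% without Actb, against 13.8% and 10.4% over all annotated genes. Genomic reads made up 35.8% and 23.6% of their reads against 5.38% and 3.23%. Genes that were called higher in replicate 1 faced a locus in 34 of 230 cases (14.8%), those called higher in replicate 2 in 4 of 135 (2.96%) and those not called in 261 of 8575 (3.04%). Median reads of these genes, summed over both libraries, were 382, 603 and 52.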

How the data were processed

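Long-read RNA libraries of 2 biological replicates were analysed. The deposited transcript tables hold raw counts of reads per model and its class, and the deposited annotations give mm10 coordinates and GENCODE M21 names, both per the file headers. Unannotated models carry TALON as their source. The sources used here do not give the aligner. The deposited gene lines differed from the span of the gene's own transcripts for 15686 and 15748 of 55536 genes, so gene starts and ends were taken from the transcripts. No normalisation was applied to the deposited counts, and CPM used all reads of a library.

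Loci joined models by exonic overlap of 1 base on the same strand. The opposite gene was that with the largest exonic overlap. Scripts used Python 3.11.15, pandas 2.3.3, scipy 1.17.1, and edgeR 4.0.16 and DESeq2 1.42.0 for scaling factors alone, as quasi-likelihood tests need replicates in more than 1 group. An offset of 0.5 reads entered the log2 ratios, and the exact binomial test was tried on simulated data. P-values measure counting error between these 2 samples. Depth limits single loci, where 1 read is 1.26 and 1.36 CPM.

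The members, gene lists and tests were chosen with earlier results of these data known. Loci were named by rule, and these were the 12 with the most reads, the 3 per position class, spliced chains, up to 12 divergent candidates read in both libraries, up to 6 calls per direction and listed antisense RNAs with reads. Named outside it, after their values were seen, were Klhl9 in the sequences, Acta2, Rps3, Gm20659, Gm26523, Gm26809 and loci read on both strands. Alternatives covered read minimums, windows, joining, scaling and filters. Some loci that the rule names are not reported here.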

Additional observations from a re-analysis of the deposited data

How the results depend on the processing

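No paired analysis was possible because the series has only 1 group, so no groups share replicate numbers. The number of loci, 347, was 848 with a minimum of 2 reads, 201 with 10 and 209 with 5 in each library. Loci with 1-exon members alone made up 98.6%, against 96.6%, 100% and 99.5%. The share at the 3′ end of 63.9% was 76.7% against every annotated transcript, 45.2% with a minimum of 2 reads and 75.1% with 10, and the other windows, coding genes alone and single libraries gave 63.6% to 66.5%. The 26 divergent candidates were 11 within 200 bases, 16 within 500, 17 at gene starts, 97 and 8 with minimums of 2 and 10 reads, 8 at starts of coding genes and 16 and 19 without replicate 1 and 2. Members of replicate 1 seen in replicate 2 were 88.2% with 2 reads, 66.5% with 5 and 85.3% with 50% reciprocal overlap, and those of replicate 2 seen in replicate 1 were 87.8% in both of the latter. The 32 calls were 52 on models of at least 5 reads alone, and the 3 calls higher in replicate 2 were 0 with reads of any class. The causes were not tested. TMM, DESeq2 and filters kept both counts within 1.5 times.
Sequence between exons was not analysed here, 5′ ends of models may be short, and most loci have fewer than 20 reads, so single loci beyond the first ones are described with few counts. The alternatives against Actb, coincident ends, coding gene starts and any class were added after seeing the data.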
